A study of Mus musculus with 2 samples.

Results

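The genes described here are the ligands, antagonists, receptors, Smads and Id target genes of the bone morphogenetic protein (BMP) and transforming growth factor beta (TGF-beta) pathways. They were chosen by symbol: the numbered Bmp, Smad, Gdf and Tgfb genes, all Bmpr, Acvr, Inhb and Tgfbr genes, Id1 to Id4, and antagonists including Grem1, Nog, Bambi and Fst, leaving out Bmp2k and Gdf15. No expression value entered this rule, but it was set with earlier results of these data known. It found 54 of the 18944 genes in the expression tables. Of these, 33 reached 1 FPKM (reads per kilobase of a gene's transcript, divided by the library's mapped reads) in at least 1 library and are called measured. The other 21 stayed below 1 FPKM in both libraries.

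The study compared cultured intestinal stem cells of the mouse, which divide at the crypt base and are known by their Lgr5 expression, in 1 wild-type (WT) and 1 Stat6 knockout (KO) library. Both genotypes are labelled Lgr5GFP-CreERT2, an allele in which the Lgr5 promoter drives a green fluorescent protein and a Cre enzyme that tamoxifen switches on, with an age of 2 months. STAT6 is a transcription factor best known for acting downstream of IL-4 and IL-13, and the comparison is between the library labelled as its knockout and the WT library. The knockout was made with a CRISPR/Cas lentivirus carrying Stat6 guide RNAs, followed by screening. The same protocol text stands under the WT sample, and the sources used here do not say whether that culture received a virus or whether the screened cells were 1 clone. The medium of both cultures contained EGF, the Wnt amplifier Rspo1 and the ROCK inhibitor Y27632, and its description names no BMP antagonist.

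Since each genotype has 1 library, the differences below have no replicate check and were not tested. The Stat6 level was 41.3 FPKM in WT against 44.2 in KO, which does not check the genotype label, since a small CRISPR deletion need not lower a transcript. Lgr5, the defining stem cell marker, was low in both, at 1.79 and 1.88 FPKM, and 7 stem cell markers summed to 78.0 and 64.8 FPKM. The 9 epithelial markers summed to 8906 and 6826 FPKM, all within 2-fold, with 3 log2 ratios above 0 and 6 below. All 8 absorptive enterocyte markers were at least 2-fold higher in KO, with sums of 3931 FPKM in WT and 14985 FPKM in KO. Marker sums in WT and KO were 6.32 and 3.48 FPKM over 10 genes of fibroblasts and smooth muscle, 14.8 and 6.05 FPKM over 7 of endothelium, and 24.4 and 10.7 FPKM over 7 of white blood cells. Cd68 (17.7 and 6.08 FPKM) made up most of the white blood cell sums. Of the 5 measured white blood cell markers 1, Itgam (1.26 and 1.72 FPKM), read higher in KO. None of the markers in these sums was at 0 in either library, and the fibroblast gene Pdgfra was at 0.05 FPKM in both. In bulk RNA, fewer cells of a type and less RNA per cell cannot be told apart. The part of these cell type differences in the values below was not tested.

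In this pathway family, a secreted ligand joins a pair of type II and a pair of type I receptor kinases, which phosphorylate receptor Smads that enter the nucleus with Smad4. TGF-beta and activin ligands act mainly through Smad2 and Smad3, and BMPs through Smad1, Smad5 and Smad9. Smad6 and Smad7 restrain the signal, and secreted antagonists such as follistatin (Fst) and noggin (Nog) hold ligands away from their receptors. In the intestine, BMP signals are high along the villus and are kept low around the crypt base by antagonists from the surrounding stroma, and TGF-beta restrains epithelial growth.

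The activin antagonist gene Fst and the activin chain gene Inhba were the only measured members at least 2-fold lower in KO, and the TGF-beta receptor gene Tgfbr2 lay just inside that limit. No measured member was at least 2-fold higher, and the highest log2 ratio was that of Bmp2. The log2 ratio used here is log2((KO FPKM + 1)/(WT FPKM + 1)), and 2-fold means a log2 ratio of 1 or more in size. Lower calls were thus 2 of 33 measured members, or 6.06%, against 2.18% of all 12079 measured genes. Higher calls were 0 of 33, against 2.44% of all measured genes. In either direction the 2 calls compare with 4.62% of all measured genes. At 1.5-fold, 1 member was higher (Bmp2), where 5.7% of all measured genes were, and 4 were lower (Fst, Inhba, Tgfbr2 and Bmp8a), where 11.4% were. The median log2 ratio of the measured members was -0.21, and that of all measured genes was -0.18, a difference of -0.03. Of the 33, 9 reached the minimum only through WT and 1 (Smad6) only through KO, which by itself sets their direction. Of the 33 members, 15 lay above the median of all genes and 18 below it. A trimmed mean of M values (TMM) factor of 1.17 on the KO library moved the median of all genes to 0.02. It also moved the split of all genes past 2-fold from 295 higher and 263 lower to 440 and 171, with the same 2 members past it.

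**Figure D1:**
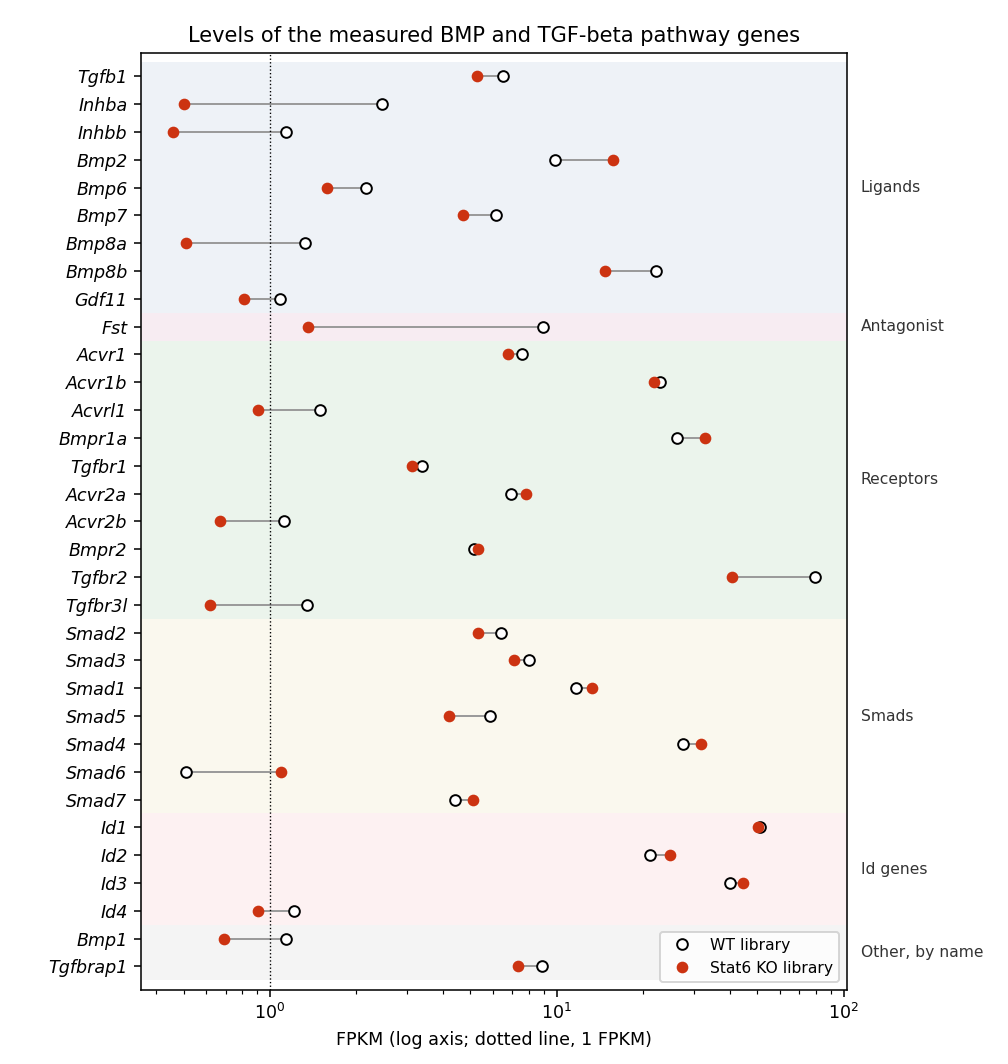
FPKM of the 33 measured members in the WT library (open circles) and the Stat6 KO library (red circles), on a log axis and ordered by role; the dotted line marks 1 FPKM. Fst (8.96 and 1.36 FPKM) and Inhba (2.46 and 0.50 FPKM) show the widest gaps, and the circles of Id1 (50.9 and 50.3 FPKM) nearly coincide.

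Follistatin, which binds activins and blocks them, showed the largest difference of the measured members. Fst (Entrez gene 14313) measured 8.96 FPKM in the WT library against 1.36 in the KO library (log2 ratio -2.08). From the lowest log2 ratio upward it ranked 25 among the 12079 measured genes. The values rest on about 188 to 489 reads in WT and 29 to 76 in KO, depending on which of the 3 annotated transcripts is counted. The plain FPKM was 6.59-fold lower in KO, with a 95% interval of 4.50 to 10.3 (exact Clopper-Pearson on the estimated reads of the shortest transcript). Such intervals cover counting error only, and the spread between cultures is not known.

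Of the 5 antagonists that the rule caught, Fst was also the only 1 measured. Outside the rule, 9 secreted regulators and processing factors were measured, all with log2 ratios below 0. Nbl1 (46.15 and 29.89 FPKM) and Twsg1 (9.38 and 6.91 FPKM), picked after their values were seen, were among them. Nog, which blocks BMPs, was at 0.03 FPKM in both libraries. Gremlin 1 (Grem1), another BMP antagonist, was at 0.03 and 0.06 FPKM. These values correspond to no more than about 5 reads. Bambi, a kinase-less decoy receptor, was at 0.34 and 0.31 FPKM.

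Activins are dimers of the beta chains encoded by the Inhb genes, and both measured chains were lower in KO. Both reached the minimum only through WT, which by itself sets that direction. Inhba (Entrez gene 16323), the beta A chain, measured 2.46 FPKM in WT against 0.50 in KO (log2 ratio -1.21), ranking 150 from the lowest. About 72 and 15 reads stand behind these values, and the plain FPKM was 4.92-fold lower, with a counting interval of 2.81 to 9.29. Inhbb (Entrez gene 16324), the beta B chain, measured 1.14 FPKM against 0.46. Its log2 ratio of -0.55 was within 2-fold, because the added 1 FPKM weighs heavily at this level. In plain FPKM it was 2.48-fold lower (counting interval 1.69 to 3.71, about 94 and 39 reads), and with a pseudocount of 0.1 its log2 ratio was -1.15. The liver-type chains Inhbc (0.03 and 0 FPKM) and Inhbe (0 and 0.02 FPKM) were at 2 estimated reads or fewer.

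Within each library Fst exceeded the activin chains it blocks. The Fst level was 3.64 times that of Inhba in WT and 2.72 times in KO, and 7.86 and 2.96 times that of Inhbb. The related antagonist Fstl3 was at 2.41 and 1.67 FPKM (log2 ratio -0.35). The counting intervals of the Fst and Inhba fold differences overlap, and which fold difference was larger was not tested.

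The activin receptors differed less than the activin chains. Acvr1b (ALK4), the main type I receptor for activins, measured 22.9 FPKM in WT against 21.9 in KO. Acvr2a, a type II receptor for activins and some BMPs, was at 6.90 and 7.83 FPKM, and Acvr2b, its relative, at 1.12 and 0.67 FPKM. The log2 ratios of these 3 genes were -0.06, 0.16 and -0.34. Acvr1c (ALK7), which binds Nodal and some activins, was at 0.17 and 0.26 FPKM.

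TGF-beta receptor type II was the most abundant member in WT. Tgfbr2 (Entrez gene 21813) measured 79.2 FPKM in the WT library against 40.8 in the KO library (log2 ratio -0.94). The plain FPKM was 1.94-fold lower, with a counting interval of 1.85 to 2.03 on at least 5310 and 2822 reads. From the lowest log2 ratio upward it ranked 321 among all measured genes. In WT it stood ahead of every other member, and in KO behind Id1 and Id3. It made up 85.7% of the type II receptor FPKM in WT and 74.7% in KO.

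Its partner Tgfbr1 (ALK5), the type I receptor for TGF-beta, was at 3.39 FPKM and 3.12 FPKM (log2 ratio -0.09). The level of Tgfbr2 was thus 23.4 times that of Tgfbr1 in WT and 13.1 times in KO. Of the ligands, Tgfb1 was at 6.51 and 5.25 FPKM (-0.27), close to the median of all genes. Tgfb2 was at 0.37 and 0.17 FPKM and Tgfb3 at 0.03 and 0.06 FPKM, both below the minimum. The co-receptor betaglycan (Tgfbr3) was at 0.37 FPKM in both libraries. Tgfbr3l, a betaglycan-like gene, was at 1.35 and 0.62 FPKM (-0.54) on about 27 and 13 reads. In the annotation used here, 77.7% of its 50-base windows also lie in another gene model, so its value is uncertain.

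The promoters of the activin chains and of Tgfbr2 are shown because these genes stood lower in KO. Those of BMP-responsive members that read higher follow further on, and such a pick by direction allows no comparison of motifs between these groups of promoters. All are RefSeq sequences of the GRCm38.p6 build, 250 bases before to 10 bases after the annotated start, 5′ to 3′ on the gene's strand. Capitals mark a match to one of the motifs searched. The table held a promoter for 24 of the 33 measured members, and Fst, Bmp2 and Id1 were not among them.
Inhba (chr13:16011601-16011860, plus strand): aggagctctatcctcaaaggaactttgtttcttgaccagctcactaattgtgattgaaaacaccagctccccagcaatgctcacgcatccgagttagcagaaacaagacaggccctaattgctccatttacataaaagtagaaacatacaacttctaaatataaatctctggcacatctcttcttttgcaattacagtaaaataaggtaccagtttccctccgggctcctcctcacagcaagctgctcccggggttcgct
Inhbb (chr1:119422239-119422498, minus strand): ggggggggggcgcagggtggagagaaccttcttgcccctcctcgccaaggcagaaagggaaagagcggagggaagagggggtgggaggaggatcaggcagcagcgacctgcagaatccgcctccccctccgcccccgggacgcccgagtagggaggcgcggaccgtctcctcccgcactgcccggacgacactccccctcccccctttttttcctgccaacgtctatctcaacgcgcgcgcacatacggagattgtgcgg
Tgfbr2 (chr9:116175354-116175613, minus strand): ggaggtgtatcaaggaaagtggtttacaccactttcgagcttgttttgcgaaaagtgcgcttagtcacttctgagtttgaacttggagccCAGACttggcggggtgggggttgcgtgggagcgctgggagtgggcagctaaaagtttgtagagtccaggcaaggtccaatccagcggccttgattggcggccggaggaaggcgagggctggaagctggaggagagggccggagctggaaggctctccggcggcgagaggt

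Motifs were searched on both strands over 300 bases, from 250 before to 50 after the start. The shares of all windows count each window singly, whereas a member counts once if any of its windows matches. The 36 members with a promoter, measured or not, had 44 windows, so the 2 measures are not alike. The STAT6-type site, TTC and GAA separated by any 4 bases, lay in 6.95% of all 32851 promoter windows and in 1 of the 24 members, Tgfbr3l. The site of other STATs, TTCNNNGAA (8.30% of all windows), the AP-1 site TGANTCA (7.81%) and the cyclic AMP response site TGACGTCA (1.79%) were in none of the 24. The short Smad element CAGAC, which 49.6% of all windows hold, was in 11 of the 24, among them Tgfbr2 at 160 bases before the start. Inhba and Inhbb held none of the motifs. A match in this window is a description of letters and not a measured binding site.

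**Figure D2:**
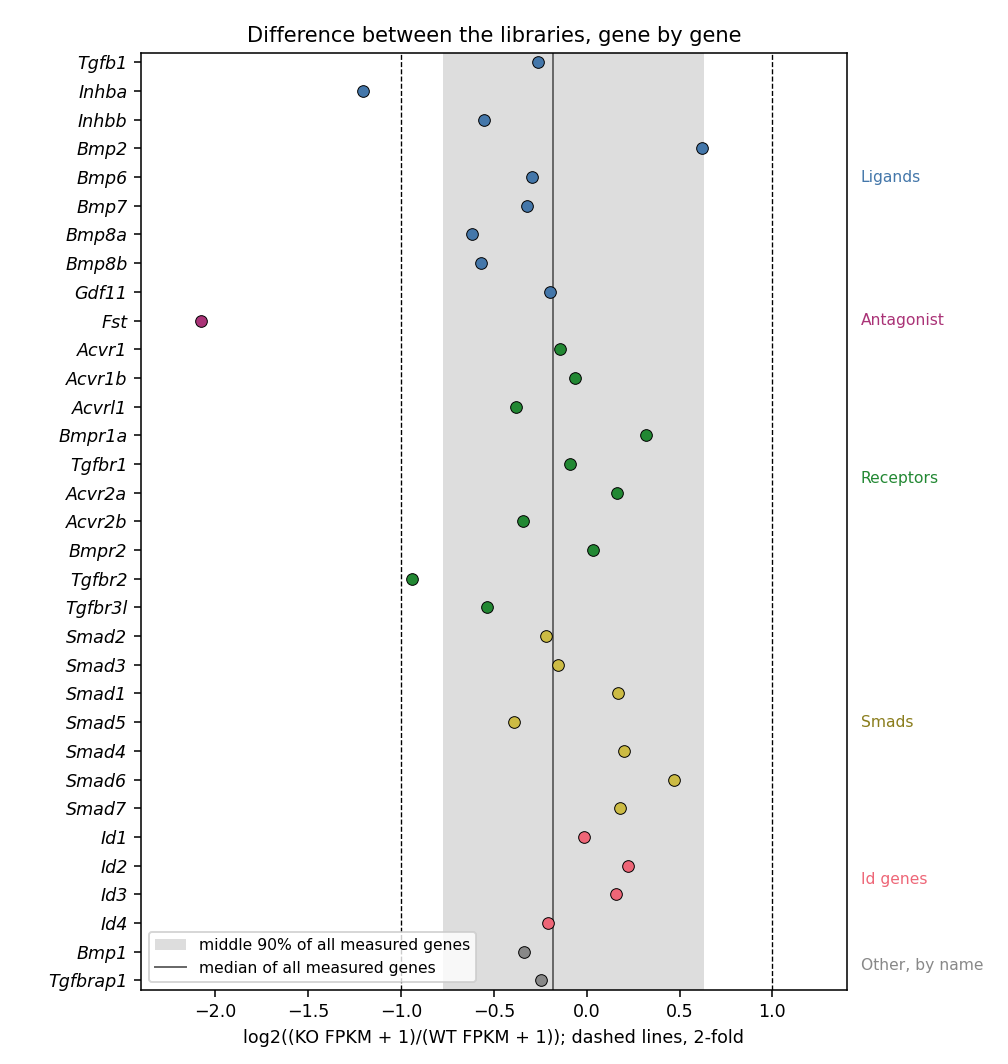
log2((KO FPKM + 1)/(WT FPKM + 1)) of the 33 measured members by role, with the middle 90% (grey band, -0.78 to 0.63) and the median (vertical line, -0.18) of all 12079 measured genes and dashed lines at 2-fold. Fst (-2.08), Inhba (-1.21) and Tgfbr2 (-0.94) lie below the grey band, and the other 30 members lie within it, with Bmp2 (0.62) at its upper edge.

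The BMP ligands were expressed in the cultures themselves and differed in opposite directions. Bmp2 (Entrez gene 12156) measured 9.82 FPKM in the WT library against 15.7 in the KO library (log2 ratio 0.62), ranking 619 from the highest. The plain FPKM was 1.59-fold higher (counting interval 1.45 to 1.76, about 674 and 1107 reads). Bmp8b was at 22.2 and 14.7 FPKM (-0.57) and was the most abundant BMP ligand of the WT library. Bmp7 was at 6.12 and 4.69 FPKM (-0.32) and Bmp6 at 2.16 and 1.58 FPKM (-0.29). Bmp8a was at 1.32 and 0.51 FPKM (-0.62), or 2.59-fold lower in plain FPKM on about 48 to 61 and 19 to 24 reads.

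All 8 BMP ligands, Bmp3, Bmp4 and Bmp5 included, summed to 43.0 FPKM in WT and 38.2 FPKM in KO, so the total differed less than its makeup. Bmp2 made up 22.8% of that sum in WT and 41.0% in KO, while Bmp8b made up 51.6% and 38.4%. As a result Bmp8b stood at 2.26 times the level of Bmp2 in WT and at 0.936 times in KO. Bmp8a and Bmp8b are neighbouring copies, and 8.74% of the 50-base windows of Bmp8a lie in other gene models too, Bmp8b among them, so part of its reads could have been assigned to either. Bmp4, a ligand mostly of the villus stroma, was at 0.54 and 0.15 FPKM, on about 17 to 21 and 5 to 6 reads. Bmp5 (0.24 and 0.27 FPKM) and Bmp3 (0.62 and 0.63 FPKM), which opposes other BMPs, were also below the minimum.

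Of the growth and differentiation factors, relatives of the BMPs, only Gdf11 was measured, at 1.08 and 0.81 FPKM (-0.20). Gdf3 (0.34 and 0.40 FPKM), Gdf9 (0.43 and 0.53 FPKM) and Gdf1 (0.19 and 0.11 FPKM) were below the minimum. Every 50-base window of Gdf1 also lies in Cers1, with which it shares a transcript, so the reads cannot be told apart. Gdf7 and Gdf10 were listed at 0 in WT, and in KO they read 0.11 and 0.02 FPKM, or about 3 and 2 reads. Over all 21 ligand genes, 9 were measured, 1 was at least 2-fold lower and 0 higher, and 8 of the 9 lay below the median of all genes, Bmp2 being the exception. Of those 8, Inhba, Inhbb, Bmp8a and Gdf11 reached the minimum only through WT, which by itself places them low, so the count is no support for a difference of the ligands.

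Of the main BMP receptors, Bmpr1a read higher in KO and Bmpr2 was level. Bmpr1a (ALK3), the main BMP type I receptor of the gut epithelium, measured 26.2 FPKM in WT against 32.9 in KO (log2 ratio 0.32). It was the only receptor of the family whose log2 ratio exceeded 0.2, and its plain FPKM was 1.26-fold higher (counting interval 1.20 to 1.32). Bmpr2, the BMP type II receptor, was at 5.16 and 5.31 FPKM (0.03). Acvr1 (ALK2), which also serves BMPs, was at 7.59 and 6.78 FPKM. Its log2 ratio was -0.14 as deposited and 0.06 under the TMM factor. Bmpr1b (ALK6) was at 0.04 FPKM in both. Acvrl1 (ALK1), a receptor typical of endothelium, was at 1.49 and 0.91 FPKM (-0.38). The endothelial co-receptor Eng was at 1.10 and 0.49 FPKM (-0.50). The endothelial markers also read lower in KO, with Pecam1 at 4.24 and 1.99 FPKM and Cdh5 at 2.22 and 1.22 FPKM. Their part in the values of Acvrl1 and Eng was not tested.

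The Smads, which carry the signal to the nucleus, were all within 2-fold. Smad4, shared by both branches, was the most abundant with 27.5 FPKM in WT against 31.8 in KO (0.20). On the BMP branch, Smad1 was at 11.7 and 13.2 FPKM (0.17) and Smad5 at 5.84 and 4.21 FPKM (-0.39), so the pair differed in sign as deposited. Their sum with Smad9 (0.12 and 0.28 FPKM) was nearly the same, at 17.6 and 17.7 FPKM. On the TGF-beta branch, Smad2 was at 6.38 and 5.33 FPKM (-0.22) and Smad3 at 8.01 and 7.10 FPKM (-0.15). Smad3 changed sign to 0.05 with the TMM factor. The BMP branch made up 55.0% of the receptor Smad FPKM in WT and 58.8% in KO.

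Both inhibitory Smads read higher in KO. Smad6, which mainly restrains BMP signals and is itself induced by them, measured 0.51 FPKM in WT against 1.09 in KO. Its log2 ratio was 0.47, and its plain FPKM was 2.14-fold higher, on about 29 and 64 reads (counting interval 1.36 to 3.44). Smad7, which restrains both branches, was at 4.41 and 5.12 FPKM (0.18). Of the 7 measured Smads, 5 lay above the median of all genes, with a median of 0.17. Smad6, 1 of those 5, reached the minimum only through KO, which by itself places it high.

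The Id genes encode inhibitors of basic helix-loop-helix factors and are direct targets of BMP-activated Smads. Id1 measured 50.9 FPKM in the WT library against 50.3 in the KO library (log2 ratio -0.02, and 0.21 under the TMM factor). The plain FPKM of KO was 0.988 times that of WT, with a counting interval of 0.899 to 1.08. Id3 was at 39.98 and 44.65 FPKM (0.16) and Id2 at 21.1 and 24.8 FPKM (0.22). Id4 was far lower, at 1.21 and 0.91 FPKM (-0.21). The 4 genes summed to 113 FPKM in WT and 121 FPKM in KO. Thus 3 of the 4 lay above the median of all genes and none was past 2-fold, while Id1 and Id3 were among the 3 most abundant members in each library.

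The promoters of Smad6, Id3 and Id2 follow in the same layout, as those of BMP-responsive members that read higher in KO. Being picked by direction, they are not compared with the promoters shown earlier.
Smad6 (chr9:64022050-64022309, minus strand): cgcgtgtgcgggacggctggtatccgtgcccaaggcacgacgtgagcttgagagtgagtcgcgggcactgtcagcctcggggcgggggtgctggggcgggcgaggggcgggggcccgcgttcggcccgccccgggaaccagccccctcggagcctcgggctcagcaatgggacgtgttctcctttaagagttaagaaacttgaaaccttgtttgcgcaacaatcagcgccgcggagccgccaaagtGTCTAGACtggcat
Id3 (chr4:136143572-136143831, plus strand): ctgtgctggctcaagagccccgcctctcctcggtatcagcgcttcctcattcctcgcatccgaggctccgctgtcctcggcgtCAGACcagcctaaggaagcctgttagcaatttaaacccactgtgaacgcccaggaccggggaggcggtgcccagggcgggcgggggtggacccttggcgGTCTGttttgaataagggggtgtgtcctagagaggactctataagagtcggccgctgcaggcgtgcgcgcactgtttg
Id2 (chr12:25096083-25096342, minus strand): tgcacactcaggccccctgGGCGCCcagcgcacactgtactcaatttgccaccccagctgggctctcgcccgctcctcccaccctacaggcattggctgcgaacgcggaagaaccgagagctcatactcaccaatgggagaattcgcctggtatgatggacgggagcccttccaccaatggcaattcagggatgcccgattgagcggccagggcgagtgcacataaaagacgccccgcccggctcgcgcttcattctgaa

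The Smad6 promoter held the palindromic Smad binding element GTCTAGAC, whose first base lies 4 bases before the annotated start. Only 70 of all 32851 promoter windows, or 0.213%, held that motif, and no other of the 24 measured members did. Id3 held the short element CAGAC 167 bases before the start, and the same site on the other strand (GTCTG) 68 bases before it. Id2 held the GC-rich element GGCGCC 231 bases before the start. That element lay in 11.9% of all windows and, counted by gene, in 8 of the 24 measured members, among them Bmpr1a and Id4. The CAGAC search does not overlap the palindrome, since GTCTAGAC contains neither CAGAC nor GTCTG.

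Of the names that the rule caught without a signalling role of this kind, Bmp1 is a protease that trims procollagens and frees BMPs from chordin. It was at 1.14 and 0.69 FPKM (-0.34). Tgfbrap1, a vesicle-tethering protein that binds the TGF-beta receptor, was at 8.85 and 7.30 FPKM (-0.25). Tgfb1i1, the focal adhesion protein Hic-5, was at 0.46 and 0.14 FPKM.

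Genes of the pathways outside the rule gave 94 further genes, chosen by function with earlier results of these data known, of which 58 were measured. Of these, 2 were at least 2-fold lower and 2 at least 2-fold higher, and their median log2 ratio was -0.16, against -0.18 for all genes. Of all measured genes 2.18% were lower and 2.44% higher by that fold, so both counts lie near that background. The secreted regulators and processing factors held both of the lower genes. Thbs1, a matrix protein that activates latent TGF-beta, was at 17.0 and 6.90 FPKM (-1.19, and -0.98 under the TMM factor). Itgb6, the chain of the integrin that frees TGF-beta from its latent complex on epithelia, was at 13.3 and 6.13 FPKM (-1.001, and -0.80 under the TMM factor). Its partner chain Itgav, also of that list, was at 7.99 and 5.56 FPKM and was chosen after its values were seen. The highest of the list were Fstl1 (-0.26) and the protease Pcsk6 (-0.28), so all 9 measured genes lay below the median of all genes. Fstl1 and Pcsk6 reached the minimum only through WT, which by itself places them low.

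The 2 higher genes were among 11 measured genes that respond to TGF-beta. Cdkn2b, the cell cycle inhibitor p15, measured 11.7 FPKM in WT against 36.4 in KO (1.56). Tgfbi, a secreted matrix protein, was at 2.76 and 8.30 FPKM (1.31). The list's lowest were the basement membrane collagen Col4a1 (4.40 and 2.19 FPKM, -0.76) and the matricellular gene Cyr61 (3.91 and 1.93 FPKM, -0.74). The list median was 0.17, with 8 of 11 above the median of all genes. Of those 8, Ctgf (0.76 and 1.33 FPKM) reached the minimum only through KO, which by itself places it high. Many of these genes respond to other signals too.

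Among 29 measured intracellular regulators none was past 2-fold and the median was -0.17. Pmepa1, a membrane protein that TGF-beta induces and that holds back Smad2 and Smad3, was lowest at 19.5 and 9.82 FPKM (-0.92), followed by the Smad corepressor Tgif1 (34.6 and 22.3 FPKM, -0.61). Tab1, a partner of the TAK1 kinase, was highest at 8.18 and 10.6 FPKM (0.34), followed by the ubiquitin ligase Nedd4l at 6.56 and 7.92 FPKM (0.24). Of the other ligands and co-receptors 4 were measured, namely Eng, the BMP co-receptors Rgmb (-0.13) and Neo1 (-0.07), and Lefty1 (1.70 and 2.24 FPKM, 0.26), which antagonizes Nodal.

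Of the BMP responsive genes 5 of 14 were measured and none was past 2-fold. Atoh8, a helix-loop-helix factor, was at 1.11 and 1.79 FPKM (0.40) and Unc5b, a netrin receptor, at 10.3 and 12.8 FPKM (0.28). The homeobox gene Msx1 was at 5.83 and 4.77 FPKM (-0.24) and Runx1 at 2.08 and 1.79 FPKM (-0.14). The list median of 0.11 was 0.29 above that of all genes, next to 0.25 above it for the Id genes. These medians rest on only 5 and 4 genes, and in each list 2 log2 ratios were below 0.

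Enterocytes at the villus tip, where BMP signals are strongest, express a set of genes of which 5 of 6 were measured here. Apoa4, an apolipoprotein, was at 249 and 779 FPKM (1.64), the one gene of the 5 past 2-fold. Klf4, a differentiation factor, was at 26.4 and 51.3 FPKM (0.93). Ada, adenosine deaminase, was at 14.2 and 8.80 FPKM (-0.63) and Egfr, the EGF receptor, at 9.73 and 5.63 FPKM (-0.69). The set thus stood on both sides of the median of all genes. Of its 3 genes below that median, Slc28a2 (1.06 and 0.78 FPKM) reached the minimum only through WT, which by itself places it low. Apoa4 is also 1 of the 8 general enterocyte markers, all of which were higher in KO.

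**Figure D3:**
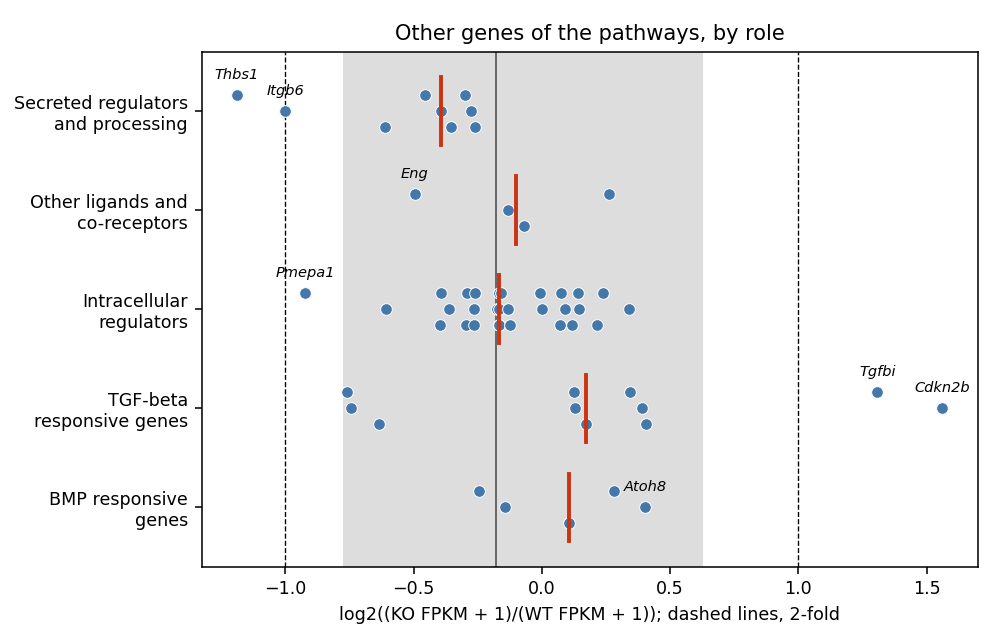
log2((KO FPKM + 1)/(WT FPKM + 1)) of 58 measured pathway genes outside the name rule, 1 point per gene in 5 lists, with red bars at the list medians, the middle 90% of all measured genes in grey, their median as a vertical line and dashed lines at 2-fold. Points are staggered vertically only for legibility. Thbs1 (-1.19) and Itgb6 (-1.001) lie at or beyond 2-fold lower, Tgfbi (1.31) and Cdkn2b (1.56) beyond 2-fold higher.

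A pseudocount of 0.1 moved Bmp8a, Inhba and Inhbb by at least 1.5-fold, and a pseudocount of 5 moved Fst and Inhba that far. The TMM factor moved no member that far but changed 5 signs (Acvr1, Acvr1b, Id1, Smad3 and Tgfbr1). As deposited, the log2 ratios of those 5 lay between -0.15 and -0.02. With a pseudocount of 0.1 the log2 ratios of Bmp8a (-1.22), Inhbb (-1.15) and Tgfbr3l (-1.01) also passed 2-fold, which gave 5 lower members of 33, where 5.0% of all measured genes were lower. With a pseudocount of 5 only Fst (-1.13) did, where 0.522% of all measured genes were lower. Fst was past 2-fold in all 5 settings plotted, and Inhba in 4 of them, at -0.44 with a pseudocount of 5. Tgfbr2 was within 2-fold in all of them, at -0.71 with the TMM factor. Bmp2 and Bmpr1a kept a positive log2 ratio in each, from 0.48 to 0.84 and from 0.28 to 0.54. Smad6 ranged from 0.14 to 0.96.

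**Figure D4:**
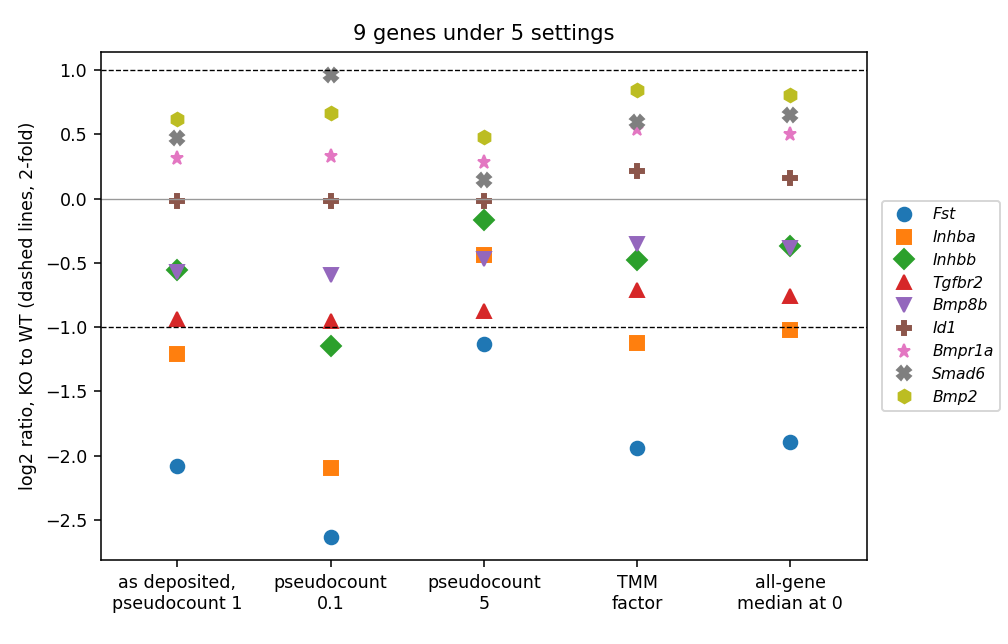
log2 ratio of KO to WT for 9 members under 5 settings: as deposited with a pseudocount of 1, pseudocounts of 0.1 and 5, a TMM factor on the KO values, and the median of all measured genes set to 0. Dashed lines mark 2-fold. Fst lies below the lower dashed line in every setting, from -2.63 to -1.13, and Id1 stays between -0.02 and 0.21.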

How the data were processed

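The authors deposited 1 table per library with FPKM values of each gene, per the file headers, kept to 2 decimals. The tools RSEM, HISAT and Bowtie2 and the build mm9 are named, per the submitters' processing notes. What each did, its version, the annotation, the read strand and any filter were not given in the sources used here. RSEM divides reads among similar genes by estimation, so values of near-copies are uncertain. Per the labels' protocols, total RNA gave single-end reads of 50 bases, with a mean of 59000000 per sample.

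The tables were joined on Entrez gene number. The log2 ratio, with a pseudocount of 1 FPKM, understates the fold change of low genes. With 1 library per genotype no test, standard error or p-value was computed. Members and gene lists were chosen with earlier results of these data known. All measured members are named, 1 member below the minimum is not reported here, and of other lists the genes past 2-fold, then the 2 highest and the 2 lowest.

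Depth was estimated from FPKM steps of single-transcript genes under 2500 bases, as 19500000 reads in WT and 20100000 in KO, with an effective length 37 bases below the annotated one. At these depths, 53.7% of 95 values in WT and 64.1% of 64 in KO, each of up to 5.5 reads, were within 0.1 read of a whole number. Depth and offset were chosen to make values whole, so these shares are no separate check, and reads quoted per gene are approximate. Only depths below the labels' mean were searched. Transcript lengths and shared 50-base windows came from GENCODE M21 (GRCm38), promoters from RefSeq. The calculations were tested on simulated data. Python 3.11.15, NumPy 2.4.6, pandas 2.3.3 and SciPy 1.17.1 were used. The alternatives were pseudocounts of 0.1 and 5, a TMM factor with trims of 30% and 5%, centring on the median of all genes, 3 other minimum levels, a 1.5-fold threshold, and a smaller set of members.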

Additional observations from a re-analysis of the deposited data

How the results depend on the processing

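The count of members at least 2-fold lower (2 of 33) was 5 with a pseudocount of 0.1, 1 with a pseudocount of 5, and 4 at a 1.5-fold threshold. Of all measured genes 5.0%, 0.522% and 11.4% were lower in these settings, against 2.18% as reported. It was 1 of 23 with at least 1 FPKM in both libraries, which leaves out Inhba by construction, and 1 of 21 with at least 5 FPKM in 1 library. Of all genes that met these minimum levels, 1.47% and 1.685% were lower. The count of members at least 2-fold higher (0) was 1 at a 1.5-fold threshold, where 5.7% of all measured genes were higher. The median log2 ratio of the members (-0.21) was -0.10 with a pseudocount of 5, -0.041 with the TMM factor and -0.030 after centring on all genes. It was -0.038 over all 54 members with no minimum, -0.092 with 1 FPKM in both libraries and -0.064 with 5 FPKM in 1. Of the other pathway genes, the count at least 2-fold higher (2) was 1 with a pseudocount of 5, where 1.192% of all measured genes were higher. The count at least 2-fold lower (2) was 0 with a pseudocount of 5, 0 with the TMM factor and 1 after centring. Of all measured genes 0.522%, 1.416% and 1.325% were lower in these settings. The median of the other pathway genes (-0.16) turned to 0.051 with the TMM factor and 0.018 after centring, both of which raise every KO value. Among members, Acvr1, Acvr1b, Id1, Smad3 and Tgfbr1 changed sign with the TMM factor, and no member did with either pseudocount. Leaving out the measured members with many shared windows or no pathway role, chosen after seeing the data, left 30 members, 2 of them lower, with a median of -0.18.

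No paired analysis was possible because there was 1 library per genotype and no replicate to leave out. Differences in genes below about 1 FPKM rest on few reads and were not called, and counting intervals do not cover the spread between cultures.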
